A study of Mus musculus with 67 samples.

Results

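Activated conventional CD4+ T cells (Tconv) of the hypothalamus were compared with those of the remaining brain, called rest brain here. The libraries were chosen by their labels, as all activated Tconv libraries of the second sequencing experiment, and they were 29 of the 67 libraries of the series, 16 from hypothalamus and 13 from rest brain. In the study, Foxp3GFP reporter mice of 2 strains received a standard diet or a high-fat high-sugar (HFHS) diet, T cells were sorted from homogenized tissue, and their RNA was sequenced in bulk. Among other steps, the gate took live cells with CD4 and high CD44, without CD25 and Foxp3GFP, after exclusion of cells carrying CD8a, CD11b, CD11c, CD14, F4/80 or B220. Each library came from pooled mice, and the pool label ran over 5 animal numbers in 21 of the 29 libraries. In 9 cases a hypothalamus and a rest brain library of the same strain and diet carried equal pool labels, and whether they came from the same mice is not given in the sources used here, so that the fits treat them as separate and p are those of unpaired libraries. In hypothalamus each strain had 4 libraries on each diet. In rest brain Balb/c had 3 libraries on each diet, and C57Bl/6J had 3 on HFHS diet and 4 on standard diet. Balb/c mice were female and C57Bl/6J mice were male, so strain and sex cannot be told apart. The diet entered the model as a term and its effect is not reported here.

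CD4+ T cells recognize antigen through the T-cell receptor, whose signal runs through the kinases Lck and Zap70 and ends in the transcription of immediate early genes such as *Fos* and *Junb*. Activated cells gain the adhesion receptor CD44 and may divide, make cytokines or stay in a tissue. In bulk RNA from sorted cells, each value is an average over all cells of a library, including any that were carried through the gate.

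The sorted cells carried the transcripts that the label implies. The T-cell receptor chain gene *Cd3e* lay, in counts scaled by library size (CPM), at 1269 to 2317 CPM (median 2176) in rest brain and at 1593 to 2647 CPM (median 2296) in hypothalamus. *Cd4* lay at 109.6 to 453.8 CPM (median 321) and 136 to 712 CPM (median 257), and *Cd44* at 124 to 283 CPM (median 170.3) and 101 to 197 CPM (median 154). *Foxp3*, whose reporter was gated out, was low in both tissues, at 0.0344 to 12.5 CPM (median 6.29) in rest brain and 0 to 13.5 CPM (median 3.89) in hypothalamus. *Il2ra*, which encodes CD25, was at 4.94 to 33.1 CPM (median 21.8) and 0 to 76.9 CPM (median 20.1). None of these 5 genes passed the test with edgeR in the fit of both strains, where the smallest adjusted p was 0.0971, for *Cd3e*, with a log2 fold change of 0.23 (SE 0.09). Over both strains *Cd3e* was called in 5 alternative fits. Without the hypothalamus library of C57Bl/6J on standard diet from pool 11_15, *Cd3e* passed the test, with 0.26 and an adjusted p of 0.0339. The CD8 gene *Cd8b1*, whose product was not among the excluded markers but pairs with CD8a, had group medians that were not near 0. It lay at 195 to 284 CPM (median 247) in Balb/c rest brain, 74.4 to 379 CPM (median 159) in Balb/c hypothalamus, 1.83 to 382 CPM (median 23.8) in C57Bl/6J rest brain and 8.47 to 290.1 CPM (median 80.2) in C57Bl/6J hypothalamus. The tissues overlapped in both strains, with a log2 fold change of 0.15 (SE 0.53, adjusted p = 0.906). Leaving out 1 library gave -0.167 to 0.752. C57Bl/6J rest brain pool 01_05 on standard diet lay at 382 CPM, and the next library of that group at 50.31. The sexes were as described: the female-specific RNA *Xist* was at 118 to 291 CPM (median 229.5) and 91.5 to 162 CPM (median 125) in Balb/c rest brain and hypothalamus and at 0 to 1.23 CPM (median 0.156) and 0 to 0.195 CPM (median 0) in C57Bl/6J, while *Eif2s3y* of the Y chromosome had medians of 261 and 218 CPM in C57Bl/6J and of 0 in both tissues of Balb/c.

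The 6 Balb/c rest brain libraries stood apart from the other 23 in how their counts were spread over genes. The 50 most abundant genes took 22.9% to 27.6% of their counts (median 24.4%), against at most 20.2% (median 19.0%) in the others. Ribosomal protein genes took 7.13% to 10.2% (median 8.78%), against 3.24% to 6.82% (median 5.48%). The mean log2 transcript length per count was 10.54 to 10.82, against 10.85 to 11.18, so that shorter transcripts weighed more. None of these 3 ranges overlapped. In Balb/c alone, the hypothalamus mean was 19.12 against 24.80 for the share of the 50 genes, 5.33 against 8.66 for ribosomal protein genes and 10.93 against 10.67 for length, each with the smallest p that the exact permutation within diet can give (0.000816, n = 8 and 6). In C57Bl/6J the same 3 measures gave exact p of 0.729, 0.606 and 0.716 (n = 8 and 7). Both strains had fewer genes with more than 10 counts in hypothalamus. The range was 9004 to 10126 genes there and 10235 to 11512 in rest brain, without overlap, and the difference of -1139 genes within strain and diet had the smallest p the exact permutation can give (3.33e-07). Library totals were 13196690 to 20538309 counts in hypothalamus and 11340063 to 28187009 in rest brain (exact p = 0.0653). In units of 1000000 counts the means were 18.0 in hypothalamus and 22.4 in rest brain in C57Bl/6J (exact p = 0.0380, 0.0949 adjusted over the 5 measures, n = 8 and 7) and 17.8 and 18.2 in Balb/c (exact p = 0.824, n = 8 and 6). The library numbers in the labels did not overlap between hypothalamus and rest brain, so that tissue and library number cannot be told apart. Log2 fold changes in C57Bl/6J alone (in brackets after the strain's name) are given beside the results that rest on them.

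**Figure D1:**
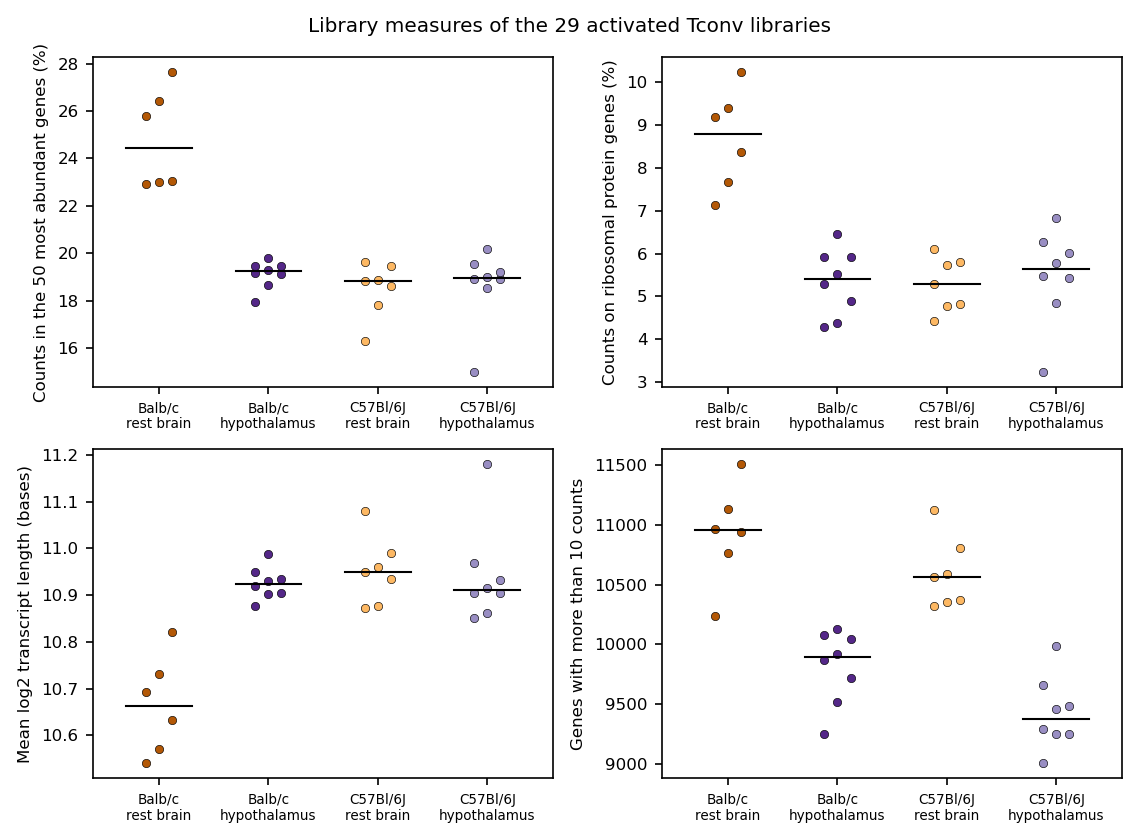
Each dot is 1 library and each line a group median. The 6 Balb/c rest brain libraries had a median of 24.4% of their counts in the 50 most abundant genes, and the other 23 had 19.0%.

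Over both strains, 1251 of 10281 genes tested (12.2%) differed between hypothalamus and rest brain, 615 of them higher in hypothalamus (5.98%) and 636 lower (6.19%). The balance of directions moved with the method, to 1382 higher and 298 lower with limma on log2(TPM + 1), 733 and 1432 with limma-voom, 195 and 500 with the number of genes detected as a covariate, and 1038 and 5946 with a filter of more than 10 counts in total. The median log2 fold change of all genes was -0.00381 in edgeR and 0.16, -0.17, 0.11 and -0.40 in these 4 fits. In Balb/c alone 2550 genes differed (24.8%), 1264 higher (12.3%) and 1286 lower (12.5%). In C57Bl/6J alone edgeR called 1 gene (0.00973%), while 511 genes (4.97%) had an unadjusted p under 0.05, and DESeq2 called 42 and limma-voom 2. In C57Bl/6J, leaving out 1 library gave 2 genes without rest brain pool 62_66, 3 without hypothalamus pool 43_47 and 4 without hypothalamus pool 11_15, all on standard diet. The tissue effect differed between the strains at 1274 genes (12.4%). A fit without the 6 Balb/c rest brain libraries has no tissue contrast in Balb/c and estimates the C57Bl/6J effect again. There edgeR called 1 gene, *Lars2*, and 522 had an unadjusted p under 0.05. The count over both strains fell to 796 without the Balb/c rest brain library on HFHS diet from pool 16_20 and to 813 without the one from pool 47_25. With an offset for GC content and transcript length in each library, chosen after the data were seen, it was 513, and it was 1175 in Balb/c and 380 for the interaction. In the libraries with equal pool labels in both tissues the count over both strains was 604, and it was 9 with pool as a block. That block left 0 genes in C57Bl/6J. Amounts of change below are log2 fold changes of hypothalamus over rest brain, and adjusted p are from edgeR. Counts of list members below stand against 12.2% of all genes called over both strains and 24.8% in Balb/c.

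The fold changes of the 2 strains were not of the same size. The median absolute log2 fold change was 0.645 in Balb/c and 0.266 in C57Bl/6J. The median SE, derived from the fold change and the test statistic of each gene, was 0.412 and 0.424. Of the 2550 genes that differed in Balb/c, 1498 (58.7%) had the same sign in C57Bl/6J, against 5698 (55.4%) of all genes tested. The share was 834 of 1264 for genes higher in hypothalamus and 664 of 1286 for genes lower. Their median log2 fold changes were 1.27 in Balb/c and 0.12 in C57Bl/6J for the higher genes, and -0.92 and -0.01 for the lower ones. Where a gene differed in Balb/c and also had an unadjusted p under 0.05 in C57Bl/6J, 170 of 201 (84.6%) had the same sign. Across all genes the 2 sets of fold changes correlated at r = 0.144, and genes are not independent replicates. Of the 1251 genes that differed over both strains, the interaction passed the test at 661 and did not at 590.

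**Figure D2:**
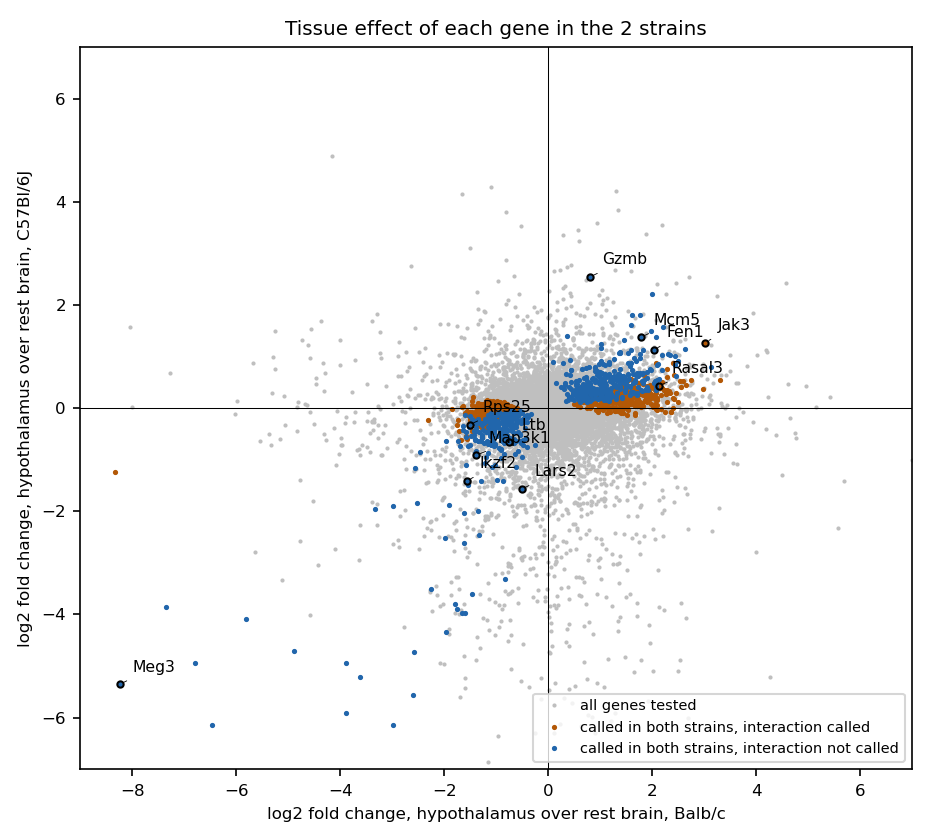
Each dot is 1 gene, with its log2 fold change in Balb/c on the horizontal axis and in C57Bl/6J on the vertical axis. Of the 1251 genes that differed over both strains, the 661 with an interaction are brown and the 590 without are blue.

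A first group of genes fell over both strains, with edgeR adjusted p over the threshold in C57Bl/6J alone. Genes of this group and of the next were named for having the same sign in each strain, negative here. Their agreement in sign was thus set by the choice of genes and is no result. DESeq2 called members of the group in C57Bl/6J, among them *Ltb* and *Chaserr*. *Map3k1*, a kinase upstream of the JNK pathway, lay at 142 to 190.1 CPM (median 172) in Balb/c rest brain and 51.6 to 72.5 CPM (median 66.7) in Balb/c hypothalamus, and at 98.3 to 152 CPM (median 129) and 39.2 to 127 CPM (median 65.4) in C57Bl/6J. The tissues did not overlap in Balb/c and overlapped in C57Bl/6J, and its log2 fold change over both strains was -1.12 (SE 0.14, adjusted p = 2.14e-05), with -1.39 in Balb/c and -0.91 (adjusted p = 0.353) in C57Bl/6J. *Ltb*, which encodes lymphotoxin beta and was the most abundant cytokine gene, was at 1258 to 1676 CPM (median 1388) and 552 to 1276 CPM (median 767) in Balb/c and at 652 to 1131 CPM (median 759.7) and 367 to 596 CPM (median 499) in C57Bl/6J. The C57Bl/6J groups did not overlap, and the log2 fold change was -0.71 (SE 0.11, adjusted p = 3.49e-04) over both strains, -0.75 in Balb/c and -0.66 in C57Bl/6J (edgeR adjusted p = 0.0865). In C57Bl/6J it passed the test with DESeq2, with limma-voom, with the offset for GC content and length, and without hypothalamus pool 11_15 (adjusted p = 0.0299). *Il7r*, the receptor chain for interleukin 7, fell by less, with a log2 fold change of -0.51 (SE 0.10, adjusted p = 0.00272, C57Bl/6J -0.36). *Ikzf2*, which encodes Helios, had a log2 fold change of -1.47 (SE 0.34, adjusted p = 0.00628, C57Bl/6J -1.41), and its medians were 59.7 CPM in rest brain and 21.5 in hypothalamus, with overlap. *Chaserr*, a long noncoding RNA, lay at 178 to 266 CPM (median 212) in C57Bl/6J rest brain and 129.9 to 164 CPM (median 144) in C57Bl/6J hypothalamus, without overlap there or in Balb/c. It had -1.58 (adjusted p = 4.11e-06) in Balb/c and -0.55 (adjusted p = 0.132) in C57Bl/6J, with an interaction of -1.04 (adjusted p = 0.00113). *Actr2*, a subunit of the Arp2/3 complex that nucleates actin, had -1.46 (adjusted p = 5.03e-07) and -0.45 (adjusted p = 0.58) in the 2 strains, with an interaction of -0.97 (adjusted p = 0.00119).

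A second group rose over both strains and was named for a positive sign in each strain, again with edgeR adjusted p over the threshold in C57Bl/6J alone. It held the DNA replication genes *Fen1*, *Mcm5* and *Mcm2*, whose adjusted p in C57Bl/6J were 0.271, 0.589 and 0.542. DESeq2 called members of the group in C57Bl/6J, among them *Fen1*, *Irf2bpl* and *Fip1l1*. *Mcm5*, a subunit of the replicative helicase, was at 8.08 to 27.2 CPM (median 17.7) in Balb/c rest brain and 36.9 to 133 CPM (median 56.8) in Balb/c hypothalamus, and at 4.05 to 47.003 CPM (median 29.7) and 38.8 to 195 CPM (median 74.6) in C57Bl/6J. Its log2 fold change was 1.60 (SE 0.29, adjusted p = 0.00102, C57Bl/6J 1.37), *Mcm2* rose by 1.40 (SE 0.26, adjusted p = 0.00128, C57Bl/6J 1.13), and the flap endonuclease gene *Fen1* rose by 1.57 (SE 0.23, adjusted p = 2.00e-04), with 2.04 in Balb/c and 1.13 in C57Bl/6J. *Chaf1b*, of the complex that loads histones on new DNA, rose by 1.43 (SE 0.36, adjusted p = 0.00935, C57Bl/6J 0.75). The long noncoding RNA *Neat1* rose by 0.70 (SE 0.14, adjusted p = 0.00291), with 0.65 in Balb/c and 0.76 in C57Bl/6J. *Irf2bpl* rose by 1.10 (SE 0.21, adjusted p = 0.00128, C57Bl/6J 1.16), and *Cc2d1a* by 1.88 (SE 0.31, adjusted p = 4.50e-04, C57Bl/6J 1.57). *Map1s*, which encodes a microtubule-associated protein, rose by 1.69 (SE 0.34, adjusted p = 0.00226, C57Bl/6J 1.49). The potassium channel gene *Kcna3* rose by 1.65 (SE 0.30, adjusted p = 0.00102, C57Bl/6J 1.01), from a median of 21.5 to 51.3 CPM. *Fip1l1*, a factor of polyadenylation, rose by 1.44 (SE 0.19, adjusted p = 4.57e-05, C57Bl/6J 0.87), and its tissues did not overlap in C57Bl/6J. The cytokine signalling kinase gene *Jak3* rose by 2.07 (SE 0.31, adjusted p = 2.04e-04), with 3.02 in Balb/c, 1.27 in C57Bl/6J and an interaction of 1.77 (adjusted p = 0.014). *Il12rb1*, a receptor chain for interleukin 12, rose by 1.79 (SE 0.46, adjusted p = 0.0111, C57Bl/6J 0.80), with an interaction of 2.16 (adjusted p = 0.0589). The class I gene *H2-Q2* rose by 2.15 (SE 0.52, adjusted p = 0.00741, C57Bl/6J 2.21), and lay at 0.224 to 7.22 CPM (median 0.324) in C57Bl/6J hypothalamus and 0 to 0.998 CPM (median 0.157) in C57Bl/6J rest brain. Its C57Bl/6J value rested on hypothalamus pool 67_66 on standard diet, at 7.22 CPM, with the other 7 at up to 0.540, and without that library its log2 fold change over both strains was 1.43 (adjusted p = 0.0369).

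**Figure D3:**
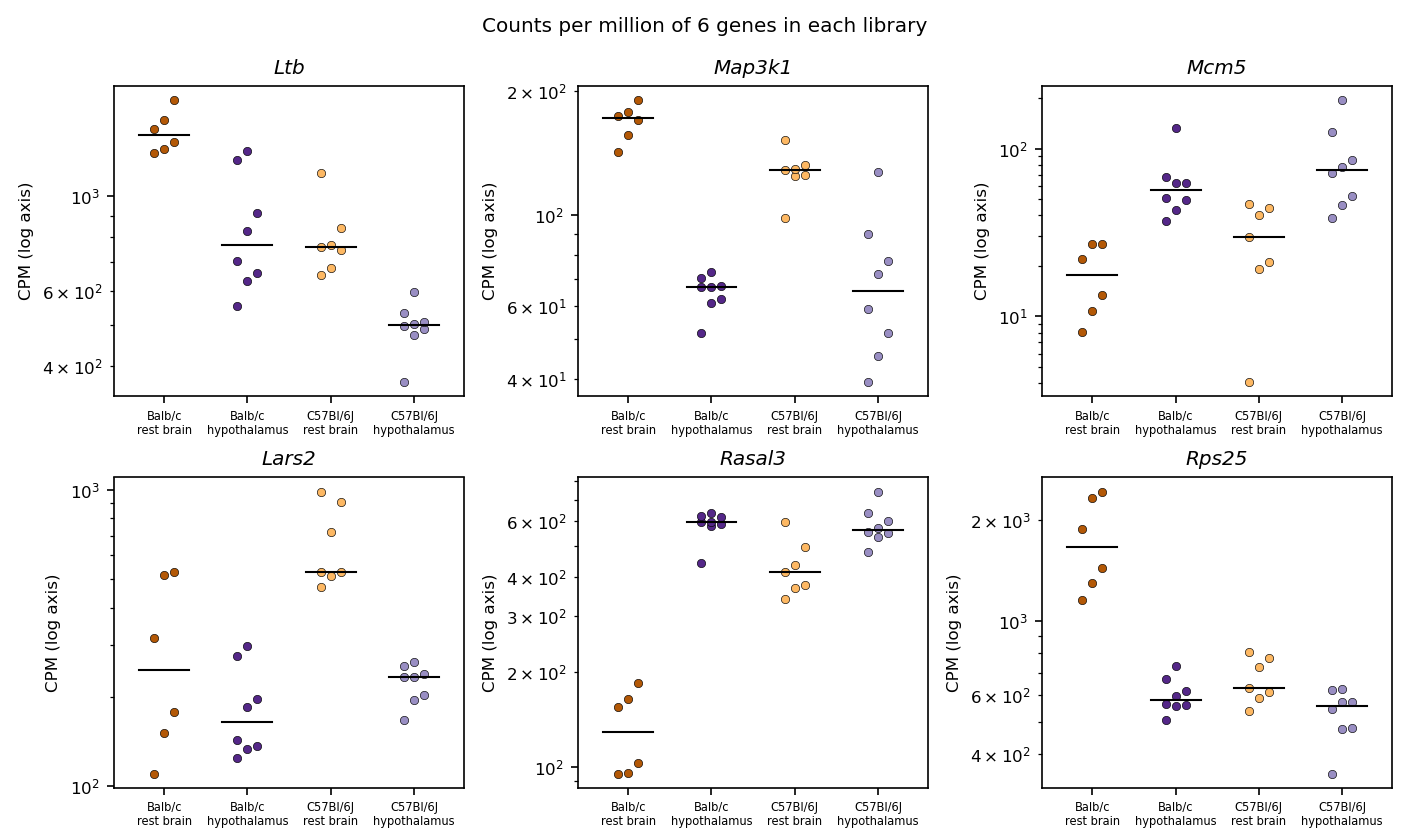
Each dot is 1 library, and the axis of each panel is logarithmic. In C57Bl/6J the median of *Lars2* was 529 CPM in rest brain and 233 CPM in hypothalamus.

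In C57Bl/6J alone, *Lars2* was the gene that edgeR called. It encodes the leucyl-tRNA synthetase of mitochondria. It lay at 468.05 to 984 CPM (median 529) in C57Bl/6J rest brain and at 168 to 263 CPM (median 233) in C57Bl/6J hypothalamus, without overlap, with a log2 fold change of -1.57 (SE 0.17, adjusted p = 6.28e-04). In Balb/c it was at 110.3 to 526 CPM (median 247) and 125 to 297 CPM (median 165), with overlap, and its log2 fold change was -0.50 (SE 0.27, adjusted p = 0.201). The interaction was 0.94 (SE 0.36, adjusted p = 0.0855), so a difference between the strains did not pass the test. Of the next genes by p in C57Bl/6J, *Gzmb*, which encodes the cytotoxic protease granzyme B, was at 9.98 to 95.0 CPM (median 56.3) in rest brain and 96.5 to 1367 CPM (median 205) in hypothalamus, without overlap. Its log2 fold change there was 2.54 (SE 0.56, adjusted p = 0.242), against 0.80 (SE 0.83, adjusted p = 0.544) in Balb/c and 1.69 (SE 0.55, adjusted p = 0.0394) over both strains, and the last call was lost in 17 of the 29 fits that left out 1 library, with an adjusted p of up to 0.0762. The C57Bl/6J value of *Gzmb* was 1.75 without hypothalamus pool 72_76 on HFHS diet, at 1367 CPM, where the next library was at 370.2. *Prmt1*, an arginine methyltransferase, had 1.41 (SE 0.30, adjusted p = 0.212) in C57Bl/6J, without overlap of the tissues, and 0.37 (SE 0.33, adjusted p = 0.483) in Balb/c. *Gm6793* had 0.89 (SE 0.19, adjusted p = 0.206) in C57Bl/6J and 0.08 (SE 0.21, adjusted p = 0.831) in Balb/c. Its call over both strains, 0.50 with an adjusted p of 0.0368, was lost in 9 of those 29 fits (up to 0.0788). In C57Bl/6J it passed without hypothalamus pool 11_15 (adjusted p = 0.0397), and DESeq2 called *Gm6793* and *Prmt1* there.

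Some of the lowest folds over both strains were at genes with low counts in hypothalamus. The filter asked for more than 10 counts in 13 libraries, which is also the number of rest brain libraries, so that a gene could pass through rest brain alone. *Meg3*, a noncoding RNA abundant in neurons, was at 8.21 to 559.9 CPM (median 57.3) in Balb/c rest brain, 0 to 1.28 CPM (median 0.0999) in Balb/c hypothalamus, 0.391 to 32.5 CPM (median 1.93) in C57Bl/6J rest brain and 0 to 1.499 CPM (median 0.0541) in C57Bl/6J hypothalamus, with a log2 fold change of -6.64 (SE 0.83, adjusted p = 2.14e-05, C57Bl/6J -5.36). The neuronal genes *Nrgn* and *Map1b* had -5.97 (SE 1.70, adjusted p = 0.0203, C57Bl/6J -4.95) and -4.40 (SE 1.02, adjusted p = 0.00591, C57Bl/6J -5.21). *Tyrobp*, an adaptor of myeloid cells, had -4.17 (SE 1.23, adjusted p = 0.0248, C57Bl/6J -6.14), and its call was lost without C57Bl/6J rest brain pool 11_15 on standard diet (adjusted p = 0.0556). In C57Bl/6J rest brain *Tyrobp* was at 16.3 and 19.45 CPM in 2 libraries and at most 1.095 in the other 5. Without 1 hypothalamus library the log2 fold change was -5.83 for *Tyrobp* (Balb/c, HFHS diet, pool 11_14), -7.50 for *Meg3* (C57Bl/6J, standard diet, pool 67_71), -6.85 for *Nrgn* (Balb/c, standard diet, pool 42_46) and -5.31 for *Map1b* (Balb/c, standard diet, pool 06_10). At the other end, the weakest values of the fits without 1 library were -3.59 for *Tyrobp*, -6.26 for *Meg3*, -5.45 for *Nrgn* and -4 for *Map1b*. *Alcam*, an adhesion gene, had -3.26 (SE 0.94, adjusted p = 0.022, C57Bl/6J -4.34). In bulk data, fewer cells of a type and less RNA per cell cannot be told apart.

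Marker lists of other cell types ran from near 0 to a summed group median of 1125 CPM, for macrophages and monocytes in C57Bl/6J rest brain. In some of the lists 1 rest brain library held more than the rest. Of the 15 microglia markers, 4 were tested, none passed the test over both strains, 1 was lower in Balb/c and 1 passed the interaction, and their summed median was 210.5 CPM in Balb/c rest brain, 144.9 in Balb/c hypothalamus, 198.9 in C57Bl/6J rest brain and 183.8 in C57Bl/6J hypothalamus. The Balb/c rest brain library on standard diet from pool 42_46 had a microglia sum of 1070 CPM, against at most 319.8 in any other library, and it also had the highest sums for oligodendrocytes (639.7), neurons (129.8) and hypothalamic neuropeptides (47.88). The 10 oligodendrocyte markers had summed medians of 210.3 CPM in Balb/c rest brain, 347.5 in Balb/c hypothalamus, 352.9 in C57Bl/6J rest brain and 301.6 in C57Bl/6J hypothalamus. Of these markers 3 were tested, and over both strains 1 rose and 1 fell. *Cnp*, the most abundant, rose, with 0.47 (SE 0.16, adjusted p = 0.0445, C57Bl/6J -0.04). The *Cnp* call was lost in 16 of the 29 fits without 1 library (adjusted p up to 0.105). The 13 macrophage and monocyte markers had summed medians of 567, 434.2, 1125 and 1035 CPM in the same order of groups. Of these 13 markers, 2 were tested, none passed the test over both strains and 1 was lower in Balb/c. This was *Ly6c2*, the most abundant, which had medians of 271, 178, 867 and 850.4 CPM in Balb/c rest brain, Balb/c hypothalamus, C57Bl/6J rest brain and C57Bl/6J hypothalamus. It had -0.78 (SE 0.27, adjusted p = 0.0413) in Balb/c and -0.50 (SE 0.18, adjusted p = 0.0649) over both strains, where it passed the test in 5 of the 29 fits without 1 library (down to 0.0340). The 5 natural killer cell markers had summed medians of 143.5, 59.27, 302.8 and 203.7 CPM in that order. Of these, 3 were tested and *Klrk1*, the most abundant, fell, with -0.89 (SE 0.29, adjusted p = 0.0415, C57Bl/6J -0.46). That call was lost in 16 of the 29 fits without 1 library (adjusted p up to 0.0952). Of the 10 endothelial markers, 3 were tested, 2 of them with a positive sign over both strains, and their median log2 fold change was 0.30. *Ly6c1*, the most abundant, fell, with -0.70 (SE 0.21, adjusted p = 0.0249, C57Bl/6J -0.49), a call lost without Balb/c rest brain pool 16_20 on HFHS diet (adjusted p = 0.0702), and the summed medians of the list were 268.7, 204.1, 137.9 and 164.1 CPM.

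Dendritic cell markers, led by *Cd74*, had summed medians of 33.5, 46.4, 24.9 and 17.4 CPM in the same order of groups, with 443.9 CPM in C57Bl/6J rest brain pool 11_15, and none of 4 tested passed the test. Pericyte and smooth muscle markers, led by *Kcnj8*, had summed medians of 10.9, 10.8, 25.2 and 22.2 CPM, and none of 2 tested passed it. Astrocyte markers, led by *Aldoc*, had 10.3, 0.235, 6.44 and 9.60 CPM, and the 1 tested did not pass. Hypothalamic neuropeptide genes, led by *Pomc*, had 8.84, 0.771, 2.69 and 2.41 CPM, with *Gal*, *Ghrh* and *Tac2* at 0 in every library and 1 tested, which did not pass. For 10 lists no member passed the filter: neurons, tanycytes, oligodendrocyte precursors, neutrophils, B cells, gamma-delta T cells, erythroid cells, fibroblasts, mast cells and platelets. Their most abundant genes were *Nefl*, *Col23a1*, *Olig1*, *Cxcr2*, *Cd79b*, *Sox13*, *Hba-a1*, *Dcn*, *Cpa3* and *Gp1bb*, and the highest summed median of any group was 11.4 CPM, for neurons in Balb/c rest brain. *Pax5*, *Hba-a2*, *Hbb-bs*, *Mcpt4* and *Ppbp* were at 0 in every library. The 2 CD8 genes had summed medians of 409.4, 273.9, 35.13 and 134.4 CPM in the same order, and neither passed the test. The part of these cells in the results was not tested.

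Genes of protein synthesis in the cytosol formed the group with the most members lower in Balb/c hypothalamus. Of 81 ribosomal protein genes tested, 75 were lower and 1 was higher in Balb/c, with a median log2 fold change of -1.02, against 0.05 for all genes. In C57Bl/6J edgeR called none and DESeq2 1, higher, 3 had an unadjusted p under 0.05 and the median was 0.08, and the interaction passed at 74 of the 81. Over both strains 49 fell and 1 rose. *Rps25* was at 1155 to 2433 CPM (median 1660.0) in Balb/c rest brain and 506 to 732 CPM (median 582) in Balb/c hypothalamus, without overlap, and at 540.2 to 810.3 CPM (median 631) and 349.8 to 627 CPM (median 559) in C57Bl/6J, with overlap. It fell by 1.51 (SE 0.12, adjusted p = 6.97e-07) in Balb/c, with -0.32 (SE 0.12, adjusted p = 0.849) in C57Bl/6J and an interaction of -1.18 (adjusted p = 5.28e-04). *Rps27*, the most abundant of the list, had -1.41 in Balb/c and -0.13 in C57Bl/6J (interaction -1.27, adjusted p = 0.00116), and *Rpl22l1* had -1.50 and -0.37 (interaction -1.12, adjusted p = 0.00494). The member that rose was *Rpl3*, by 0.49 (SE 0.09, adjusted p = 8.04e-04), with 0.53 in Balb/c and 0.45 in C57Bl/6J. Balb/c rest brain was the group with the shorter transcripts and the larger share of ribosomal protein counts, and the offset for GC content and length left 32 lower and 5 higher in Balb/c, with a median of -0.19. Over both strains that offset left 12 lower and 4 higher, with a median of -0.07, and *Rpl22l1* turned to 0.03. The list had 70 lower and a median of -1.20 with the number of genes detected as a covariate, 71 lower and -0.64 with limma-voom, 20 lower, 7 higher and -0.17 with limma on log2(TPM + 1), and 1 lower, 1 higher and 0.04 with the share of the 50 most abundant genes as a covariate, against -0.48 in edgeR without these terms.

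Messenger RNAs of ribosomal proteins often begin with a terminal oligopyrimidine (TOP) stretch, a C followed by a run of C and T that ties their translation to growth signals. In the RefSeq annotation of GRCm38.p6, a run of at least 6 pyrimidines starting with C within 3 bases of the annotated start was found for 25 of the 61 tested ribosomal protein genes that had an annotated start (41%). Among genes with such a start it was found for 777 of 8291 genes tested (9.37%), for 78 of 999 other genes lower in Balb/c hypothalamus (7.81%) and for 100 of 1008 genes higher there (9.92%). The starts of 6 ribosomal protein genes are shown since they carry this run, as 20 bases before and 20 bases from the start, on the strand of the gene. Capitals mark the run from its first C within 3 bases of the start. In *Rpl35* and *Rpl22l1* further pyrimidines stand directly before the capitals. *Rpl22l1* is on chr3:28805488-28805527 (plus strand), *Rps27* on chr3:90213629-90213668 (minus), *Rpl34* on chr3:130730379-130730418 (minus), *Rpl35* on chr2:39005112-39005151 (minus), *Rps21* on chr2:180257359-180257398 (plus) and *Rps23* on chr13:90923102-90923141 (plus).
Rpl22l1: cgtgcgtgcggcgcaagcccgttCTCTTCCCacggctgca
Rps27: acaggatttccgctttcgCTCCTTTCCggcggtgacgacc
Rpl34: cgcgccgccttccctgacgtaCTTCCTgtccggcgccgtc
Rpl35: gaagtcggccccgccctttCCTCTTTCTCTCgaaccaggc
Rps21: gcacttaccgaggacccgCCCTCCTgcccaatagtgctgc
Rps23: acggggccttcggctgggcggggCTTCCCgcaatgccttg

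Genes of the respiratory chain and ATP synthase were split in Balb/c. Of 54 tested, 40 were lower and 6 were higher in Balb/c hypothalamus, with a median log2 fold change of -0.88, and in C57Bl/6J edgeR called none and DESeq2 1, higher, 2 had an unadjusted p under 0.05 and the median was 0.04. *Cox6c*, the most abundant member, was at 585 to 1418 CPM (median 834) and 339.8 to 453.9 CPM (median 365) in Balb/c and at 258 to 442.3 CPM (median 369) and 156 to 441.6 CPM (median 368) in C57Bl/6J. It fell by 1.21 (SE 0.14, adjusted p = 5.91e-06) in Balb/c, with an interaction of -1.18 (adjusted p = 0.00223). *Ndufc1* and *Ndufa4* fell, with -1.35 and -1.24 in Balb/c, and had -0.17 and -0.09 in C57Bl/6J. *Atp5b* and *Atp5a1*, which encode the beta and alpha subunits of ATP synthase, rose over both strains, by 0.79 (SE 0.12, adjusted p = 2.04e-04, C57Bl/6J 0.35) and 0.60 (SE 0.12, adjusted p = 0.002, C57Bl/6J 0.25). Their interactions were 0.93 (adjusted p = 3.46e-04) and 0.73 (adjusted p = 0.00844). With the offset for GC content and length, 10 of the 54 were lower and 10 higher in Balb/c, with a median of 0.02, and over both strains the signs of *Ndufc1*, *Ndufa4* and *Cox6c* turned, to 0.15, 0.18 and 0.10. The median of the list over both strains was -0.43, and it was -1.02 with the number of genes detected as a covariate, 0.03 with the share of the 50 most abundant genes as a covariate and 0.08 with the offset.

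The glycolysis genes that passed the test were higher in hypothalamus. Of 19 tested, 8 rose over both strains and none fell, with a median log2 fold change of 0.37. The medians were 0.72 in Balb/c, where 9 rose, and 0.19 in C57Bl/6J, where edgeR and DESeq2 called none and 4 had an unadjusted p under 0.05. Of all genes tested, 5.98% were called higher over both strains and 12.3% in Balb/c. *Pkm*, the muscle-type pyruvate kinase gene, was at 80.6 to 215 CPM (median 128) in Balb/c rest brain and 491 to 781 CPM (median 639.8) in Balb/c hypothalamus, without overlap, and at 374 to 896 CPM (median 585) and 622 to 876 CPM (median 812) in C57Bl/6J. It rose by 2.14 (SE 0.17, adjusted p = 7.96e-07) in Balb/c, with 0.45 (SE 0.16, adjusted p = 0.762) in C57Bl/6J and an interaction of 1.67 (adjusted p = 2.14e-04). *Gapdh*, the most abundant member, rose by 0.48 (SE 0.09, adjusted p = 0.00151, C57Bl/6J 0.28), *Eno1* by 0.68 (SE 0.13, adjusted p = 0.00123, C57Bl/6J 0.30) and *Pfkp* by 0.99 (SE 0.19, adjusted p = 0.00133, C57Bl/6J 0.40). *Gpi1*, the isomerase of the second step, was among the smallest interaction p, with 1.67 in Balb/c, 0.07 in C57Bl/6J and an interaction of 1.58 (adjusted p = 4.86e-05). Over both strains 7 were higher with the offset for GC content and length, 2 with the number of genes detected as a covariate and 1 with the share of the 50 most abundant genes as a covariate.

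Among genes that carry the signal of the T-cell receptor, those that passed the test in Balb/c were higher in hypothalamus. Of 20 tested, 12 rose in Balb/c and none fell, with a median log2 fold change of 0.66, and the interaction passed at 10. In C57Bl/6J edgeR and DESeq2 called none, 2 had an unadjusted p under 0.05 and the median was -0.07. *Lck* was at 524 to 1076 CPM (median 770.3) in Balb/c rest brain and 1495 to 2252 CPM (median 1852) in Balb/c hypothalamus, without overlap, and at 1234 to 1669 CPM (median 1453) and 1518 to 1836 CPM (median 1590.5) in C57Bl/6J. It rose by 1.28 (SE 0.12, adjusted p = 2.78e-06) in Balb/c and had 0.15 (SE 0.09, adjusted p = 1) in C57Bl/6J, with an interaction of 1.11 (adjusted p = 9.62e-05). *Zap70* rose by 1.45 in Balb/c with 0.04 in C57Bl/6J, the exchange factor gene *Vav1* by 1.95 with 0.44, and the adaptor gene *Lcp2* by 0.87 with 0.08. The interactions of these 3 genes were 1.39 (adjusted p = 0.00117), 1.52 (adjusted p = 0.00111) and 0.79 (adjusted p = 5.28e-04). The most abundant member, *Lat*, had 0.04 (SE 0.08, adjusted p = 0.841) over both strains. With the offset for GC content and length 7 were higher in Balb/c, with a median of 0.28.

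Genes of T-cell identity went both ways. Of 13 tested, 5 rose and 4 fell in Balb/c, where 24.8% of all genes were called. In C57Bl/6J edgeR and DESeq2 called none and 0 had an unadjusted p under 0.05. Over both strains 2 rose and 3 fell (12.2% of all genes were called), and 6 rose and none fell with limma on log2(TPM + 1). *Cd3d* was at 1111 to 1951 CPM (median 1621) and 651 to 955 CPM (median 748) in Balb/c and at 718 to 1244 CPM (median 1023) and 523 to 1159 CPM (median 1104) in C57Bl/6J, and fell by 1.002 (SE 0.11, adjusted p = 4.57e-06) in Balb/c, with 0.02 in C57Bl/6J and an interaction of -0.999 (adjusted p = 0.00162). *Cd3g*, the most abundant member, fell by 0.73 in Balb/c (interaction -0.67, adjusted p = 0.0133), and *Thy1* fell by 0.70, with -0.04 and -0.24 in C57Bl/6J. Over both strains the sign of *Cd3g* turned to 0.02 with the offset for GC content and length.

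Of 14 genes of antigen presentation on MHC class I, 7 rose and 1 fell over both strains (12.2% of all genes were called), with a median log2 fold change of 0.30. In Balb/c 7 rose and 3 fell (24.8% of all genes were called), and the interaction passed at 5 with a positive and 2 with a negative sign. In C57Bl/6J all 14 had a positive sign and the median was 0.20, edgeR called none and DESeq2 1, and 4 had an unadjusted p under 0.05. *H2-D1* was at 2774 to 4125 CPM (median 3444) and 6134 to 9002 CPM (median 7791) in Balb/c and at 4446 to 6243 CPM (median 5543) and 5635 to 7237 CPM (median 6609.8) in C57Bl/6J. It rose by 0.73 (SE 0.11, adjusted p = 2.00e-04) over both strains, with 1.18 in Balb/c and 0.32 in C57Bl/6J (interaction 0.85, adjusted p = 3.38e-04), and *H2-K1* by 0.50 (SE 0.08, adjusted p = 4.20e-04, C57Bl/6J 0.25, interaction 0.51, adjusted p = 0.00357). *Tapbp* and *Pdia3*, of the peptide loading complex, rose by 1.07 (SE 0.23, adjusted p = 0.00359, C57Bl/6J 0.49) and 0.39 (SE 0.08, adjusted p = 0.00204, C57Bl/6J 0.22), with interactions of 1.26 (adjusted p = 0.0233) and 0.34 (adjusted p = 0.0837). The member that fell was *B2m*, the most abundant, with -0.52 (SE 0.14, adjusted p = 0.0136, C57Bl/6J 0.00). Its medians were 28565 and 14430.1 CPM in Balb/c and 14576 and 15429 CPM in C57Bl/6J, in rest brain and hypothalamus, with an interaction of -1.01 (adjusted p = 0.00151). With the offset for GC content and length *B2m* rose, by 0.20 with an adjusted p of 0.00282.

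Immediate early genes and heat shock genes that passed the test in Balb/c were mostly higher in hypothalamus. Of 28 immediate early genes tested, 8 rose and 1 fell in Balb/c, against 24.8% of all genes called there, with a median log2 fold change of 0.43, and in C57Bl/6J edgeR and DESeq2 called none, 4 had an unadjusted p under 0.05 and the median was 0.07. *Junb* was at 126 to 499 CPM (median 181) and 512 to 976 CPM (median 716) in Balb/c and at 803 to 1115 CPM (median 989) and 719.8 to 1595 CPM (median 1234) in C57Bl/6J, and it rose by 1.67 in Balb/c with 0.30 in C57Bl/6J (interaction 1.24, adjusted p = 0.0129). *Jund* rose by 2.06 with 0.47 (interaction 1.53, adjusted p = 0.00435), and *Fos*, the most abundant, by 1.42 with -0.03 (interaction 1.45, adjusted p = 0.0025). *Dusp1* and *Ppp1r15a* rose over both strains by 0.91 (SE 0.25, adjusted p = 0.0165, C57Bl/6J 0.25) and 1.03 (SE 0.29, adjusted p = 0.0177, C57Bl/6J 0.34). With the offset for GC content and length the median of the list turned to -0.22 in Balb/c, with 7 higher and 4 lower. The call of *Fos* over both strains, 0.65 (adjusted p = 0.0436), was lost in 16 of the 29 fits without 1 library (adjusted p up to 0.102). Of 12 heat shock genes, 6 rose and 1 fell in Balb/c and 4 rose over both strains, with medians of 0.83 in Balb/c and 0.26 in C57Bl/6J. *Hspa8*, the most abundant, rose by 0.71 (SE 0.13, adjusted p = 0.00112), with 1.02 in Balb/c and 0.43 in C57Bl/6J, and *Hsp90ab1* by 0.78 (SE 0.14, adjusted p = 8.86e-04, C57Bl/6J 0.49).

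Of 26 interferon-stimulated genes, 3 rose and 1 fell over both strains, and 11 rose and 3 fell in Balb/c. Of all genes tested, 12.2% were called over both strains and 24.8% in Balb/c. Over both strains, none of the list rose and 4 fell with the number of genes detected as a covariate. With limma on log2(TPM + 1) 10 rose and 1 fell, and none passed with the share of the 50 most abundant genes as a covariate. The median log2 fold change was 0.56 in Balb/c and -0.01 in C57Bl/6J, where edgeR and DESeq2 called none and 2 had an unadjusted p under 0.05. *Bst2*, which encodes tetherin, was at 4.67 to 22.4 CPM (median 12.1) and 16.6 to 123 CPM (median 41.7) in Balb/c and at 89.2 to 158 CPM (median 139) and 99.6 to 194 CPM (median 179) in C57Bl/6J, and it rose by 1.07 (SE 0.27, adjusted p = 0.0105, C57Bl/6J 0.32) over both strains (interaction 1.62, adjusted p = 0.0123). *Stat2* rose by 0.85 (SE 0.24, adjusted p = 0.0204, C57Bl/6J 0.22, interaction 1.37, adjusted p = 0.0186) and the GTPase gene *Igtp* by 0.45 (SE 0.12, adjusted p = 0.0152, C57Bl/6J 0.37). *Ifi27l2a*, the most abundant, fell by 0.78 (SE 0.16, adjusted p = 0.00264), with -1.04 in Balb/c and -0.45 in C57Bl/6J.

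Of 25 genes of Th1 and cytotoxic cells, 4 rose and 3 fell over both strains (12.2% of all genes were called), and 4 rose and 8 fell in Balb/c (24.8%). With the offset for GC content and length these counts were 3 and 1 in both fits, and the median log2 fold change turned from -0.21 to 0.11 over both strains and from -0.26 to 0.10 in Balb/c. *Ccl5*, a chemokine gene and the most abundant member, was at 1832 to 3915 CPM (median 2768) and 877 to 1695 CPM (median 1064) in Balb/c, without overlap, and at 435.8 to 2528 CPM (median 1337) and 644 to 1690.0 CPM (median 961) in C57Bl/6J, with overlap. It fell by 0.78 (SE 0.19, adjusted p = 0.009), with -1.23 in Balb/c, -0.27 in C57Bl/6J and an interaction of -0.90 (adjusted p = 0.102). The receptor gene *Klrd1* fell by 1.30 (SE 0.31, adjusted p = 0.00712, C57Bl/6J -0.63), and the protease gene *Ctsw* rose by 0.51 (SE 0.10, adjusted p = 0.00284, C57Bl/6J 0.24, interaction 0.56, adjusted p = 0.0324). *Cxcr3*, the chemokine receptor gene of Th1 cells, rose by 0.41 (SE 0.11, adjusted p = 0.0125), with 0.74 in Balb/c, 0.09 in C57Bl/6J and an interaction of 0.64 (adjusted p = 0.00983). *Tbx21*, which encodes T-bet, had 0.76 (SE 0.32, adjusted p = 0.123) over both strains and 1.52 (SE 0.43, adjusted p = 0.0153) in Balb/c. *Ifng* had -0.27 (SE 0.18, adjusted p = 0.412) and the activating receptor gene *Cd226* had -0.13 (SE 0.14, adjusted p = 0.656).

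The counts in the lists that follow stand against 12.2% of all genes tested that were called over both strains. Of 10 Th17 genes 2 were tested, and *Maf* fell, with -1.16 (SE 0.18, adjusted p = 3.59e-04, C57Bl/6J -0.62, interaction -1.05, adjusted p = 0.0233). Of 9 Treg genes tested, *Ikzf2* and *Tnfrsf4* fell, the latter with -0.48 (SE 0.15, adjusted p = 0.0351, C57Bl/6J -0.23), a call lost in 11 of the 29 fits without 1 library (adjusted p up to 0.0676). Of 9 Tfh genes, *Sh2d1a* fell by 0.72 (SE 0.19, adjusted p = 0.0128, C57Bl/6J -0.29), and of 5 Th2 genes none passed the test, *Ccr4* having 0.06 (SE 0.62, adjusted p = 0.972). Of 17 cytokine genes, *Ltb* and *Il2* fell and *Tgfb1* rose. *Il2* was at 112 to 416 CPM (median 181) and 49.0 to 90.2 CPM (median 61.2) in Balb/c and fell by 0.84 (SE 0.25, adjusted p = 0.0279, C57Bl/6J -0.10) over both strains (interaction -1.50, adjusted p = 0.0184), and *Tgfb1* rose by 0.67 (SE 0.22, adjusted p = 0.0383, C57Bl/6J 0.01, interaction 1.44, adjusted p = 0.00319). The call of *Il2* was lost in 3 of those 29 fits (up to 0.0623) and that of *Tgfb1* in 14 (up to 0.0838). Of 12 genes of naive cells and tissue egress, *Il7r* fell, and the median log2 fold change was -0.40 in Balb/c and -0.49 in C57Bl/6J. *S1pr1*, which guides exit from tissue, had -0.36 (SE 0.19, adjusted p = 0.244) over both strains and -0.73 (SE 0.20, adjusted p = 0.542) in C57Bl/6J, and *Ccr7* had -0.38 (SE 0.30, adjusted p = 0.499). Of 13 genes of tissue residency, *Bhlhe40* rose, by 0.72 (SE 0.24, adjusted p = 0.0498, C57Bl/6J 0.38), a call lost in 20 of the 29 fits (adjusted p up to 0.125). The most abundant of them, *Cxcr6*, had 0.08 (SE 0.12, adjusted p = 0.732), at 1557 to 3277 CPM (median 2068) in rest brain and 1410.0 to 3146 CPM (median 2362) in hypothalamus.

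Of 15 integrin and adhesion genes tested, 3 rose and none fell. *Itgb7*, the beta 7 integrin chain, was at 98.7 to 255 CPM (median 190.5) and 335 to 672 CPM (median 489) in Balb/c, without overlap, and at 238 to 507 CPM (median 394) and 424.3 to 650.2 CPM (median 569.9) in C57Bl/6J, and it rose by 0.95 (SE 0.15, adjusted p = 4.50e-04, C57Bl/6J 0.52, interaction 0.87, adjusted p = 0.0208). *Itgb2* rose by 0.69 (SE 0.15, adjusted p = 0.00495, C57Bl/6J 0.17, interaction 1.14, adjusted p = 9.23e-04) and the selectin ligand gene *Selplg* by 0.60 (SE 0.11, adjusted p = 0.00149, C57Bl/6J 0.27, interaction 0.64, adjusted p = 0.0197). Of 11 checkpoint receptor genes *Vsir* rose, by 0.58 (SE 0.18, adjusted p = 0.0311, C57Bl/6J 0.09, interaction 1.01, adjusted p = 0.0218), a call lost in 5 of the 29 fits (adjusted p up to 0.0730). Of 11 costimulatory receptor genes, *Tnfrsf4* fell. Of 12 chemokine receptor genes, *Cxcr3* rose. Of 21 cholesterol synthesis genes edgeR called none over both strains and none in Balb/c, 1 had an unadjusted p under 0.05 in each fit, limma on log2(TPM + 1) called 2 over both strains, and *Fdps* had -0.01 (SE 0.17, adjusted p = 0.986). Of 7 nuclear noncoding RNAs, *Neat1* rose and 5 fell, among them *Meg3*, *Xist* and *Malat1*, the most abundant, with -0.40 (SE 0.11, adjusted p = 0.0192, C57Bl/6J -0.22). Of these RNAs 2 fell with the offset for GC content and length, 1 with limma on log2(TPM + 1), 1 with the share of the 50 genes and 0 with the number of genes detected as a covariate, and the Balb/c median turned from -1.02 to 0.03 with the offset.

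Of 39 S phase genes tested, 7 rose over both strains and none fell, and 9 rose and 3 fell in Balb/c. The counts in this paragraph stand against 12.2% of all genes called over both strains and 24.8% in Balb/c. The median log2 fold change was 0.48 in Balb/c and 0.36 in C57Bl/6J. In C57Bl/6J 31 of the 39 had a positive sign, edgeR called none and DESeq2 1, higher, and 5 had an unadjusted p under 0.05. *Pcna*, the most abundant, had -0.09 (SE 0.15, adjusted p = 0.768) over both strains, -0.44 (SE 0.15, adjusted p = 0.0436) in Balb/c and 0.22 in C57Bl/6J (interaction -0.67, adjusted p = 0.102). Over both strains 7 were higher with the offset for GC content and length, with a median of 0.37, and 2 each with the number of genes detected and with the share of the 50 most abundant genes as a covariate. With limma-voom the C57Bl/6J median was 0.08. Of 47 G2/M phase genes, 2 rose over both strains, 4 rose and 2 fell in Balb/c, and the median was 0.70 in Balb/c and -0.43 in C57Bl/6J. In C57Bl/6J edgeR called none and DESeq2 1, lower, and limma-voom gave a median of -1.02. With the offset none rose and 2 fell in Balb/c. The median over both strains was 0.13, and it was 1.81 with the number of genes detected and -0.13 with the share of the 50 genes as a covariate. The interaction passed at none of the 47 in edgeR, and 4 had an unadjusted p under 0.05.

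The genes with the smallest interaction p were higher in Balb/c hypothalamus than in Balb/c rest brain. *Rasal3*, a regulator of Ras in T cells, was at 94.9 to 184 CPM (median 129) and 440.2 to 634 CPM (median 596) in Balb/c, without overlap, and at 338 to 596 CPM (median 412) and 478.9 to 743 CPM (median 561) in C57Bl/6J, with overlap. Its log2 fold change was 2.13 (SE 0.16, adjusted p = 5.03e-07) in Balb/c and 0.43 (SE 0.13, adjusted p = 0.608) in C57Bl/6J, with an interaction of 1.71 (SE 0.21, adjusted p = 1.54e-05). The actin regulator gene *Coro1a* had 1.74 and 0.28 (interaction 1.43, adjusted p = 2.24e-05), and *Arhgdia* had 1.67 and 0.05 (interaction 1.59, adjusted p = 1.54e-05). *9930111J21Rik1* had 3.47 and -0.39 (interaction 3.64, adjusted p = 4.86e-05). Over both strains it had 1.20 (adjusted p = 0.0923), and it passed the test without C57Bl/6J hypothalamus pool 67_66 (adjusted p = 0.0479). For *Rasal3*, *Coro1a* and *Arhgdia*, Balb/c rest brain had the lowest median of the 4 groups.

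Fold changes in Balb/c rose with the GC content of transcripts, and with their length they rose and then fell. With the genes in 5 equal groups from the lowest to the highest GC content, the median log2 fold change was -0.35, -0.10, 0.10, 0.35 and 0.69 in Balb/c and -0.11, -0.04, -0.02, 0.02 and 0.09 in C57Bl/6J. In 5 groups from the shortest to the longest it was -0.61, 0.28, 0.46, 0.31 and -0.12 in Balb/c, and between -0.08 and 0.02 in C57Bl/6J. Genes lower in Balb/c hypothalamus had a median GC content of 47.4% and a median length of 1192 bases, genes higher there had 54.4% and 2651 bases, and all genes tested had 49.7% and 2729 bases. The part of GC content and length in the tissue effect was not tested apart from the offset given above.

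**Figure D4:**
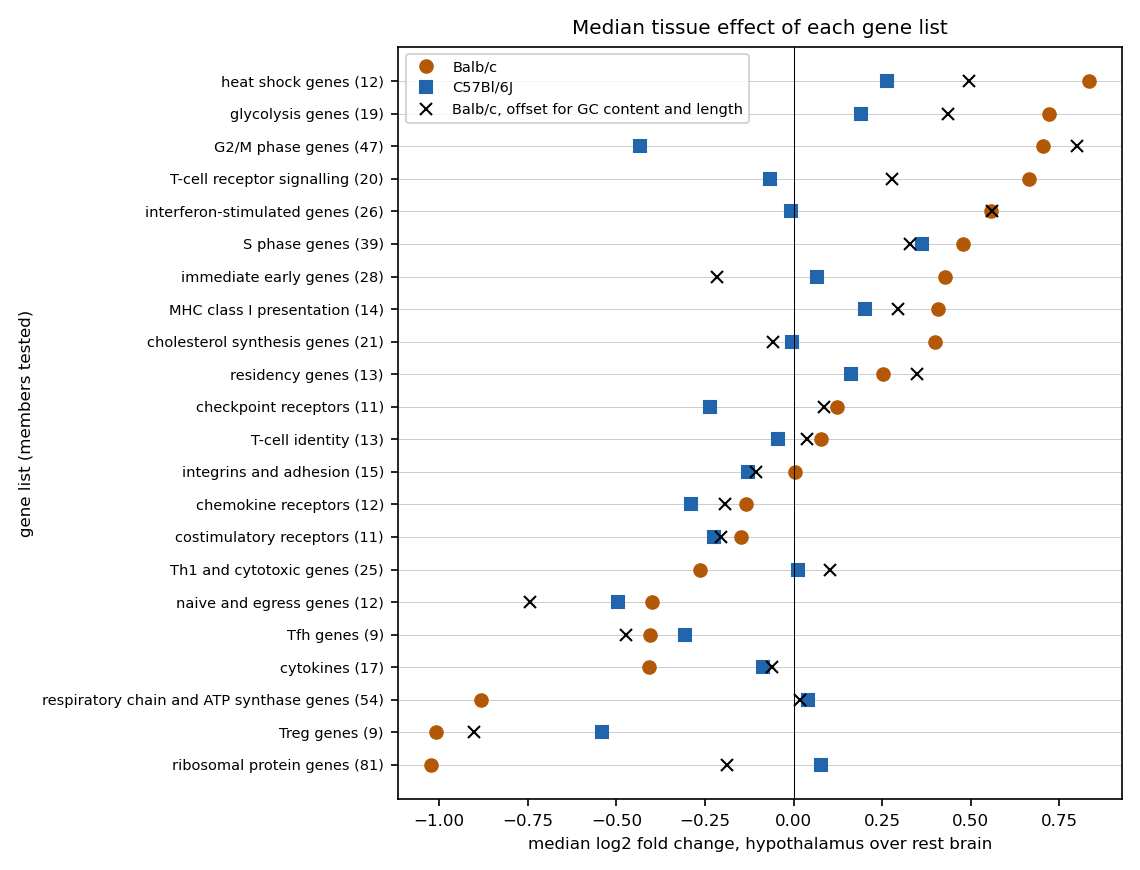
Median log2 fold change of hypothalamus over rest brain in each gene list with at least 9 genes tested. For ribosomal protein genes it was -1.02 in Balb/c, 0.08 in C57Bl/6J, and -0.19 in Balb/c with the offset for GC content and length.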

How the data were processed

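RNA of sorted activated Tconv was sequenced by the authors as paired-end reads (SMARTer mRNA kit, NovaSeq X Plus) and quantified with Salmon in nf-core/rnaseq on mm10. The deposited files hold estimated counts and TPM on 35034 transcript names. Of these, 34850 (99.5%) were matched to a gene, 34648 of them in NCBI RefSeq (GRCm38.p6), and estimated counts were summed per gene over names (24461 features) and rounded. Deposited TPM served to name the most abundant gene of a list and in an alternative with limma on log2(TPM + 1). Library totals were 11340063 to 28187009 counts.

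Genes needed more than 10 counts in at least 13 libraries (10281 genes). The tissue effect was fitted with edgeR 4.0.16 (quasi-likelihood, TMM) in R 4.3.3, over both strains with strain and diet as terms, in each strain with diet, and as an interaction, with Benjamini-Hochberg adjusted p under 0.05 as the threshold. CPM are scaled by TMM. Each SE in edgeR is the absolute log2 fold change divided by the square root of the quasi-likelihood F of the gene. Library measures were compared by exact permutation of tissue within strain and diet (3001250 assignments). DESeq2 1.42.0 and limma 3.58.1 were alternatives. Tables and figures were made with Python 3.11.15, numpy 2.4.6, pandas 2.3.3, scipy 1.17.1 and matplotlib 3.10.9. The tests were tried on simulated data.

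Named genes were the 12 highest and 12 lowest folds over both strains among genes called with at least 5 CPM on average, the same sign in both strains and no predicted symbol; the 6 smallest p; up to 4 called members and the most abundant member of each list; 9 genes named by the study; the 6 smallest interaction p; and, in C57Bl/6J, the 10 smallest p. Not all of them are named in the text, and which are was decided with their values known. Some are not reported here. *Cd3e*, *Cd4*, *Cd44*, *Foxp3* and *Il2ra* were added as gate markers. The lists cover T-cell functions and markers of other cells, and members and lists were chosen with earlier results of these data known. P-values measure the spread between pools of mice, with each pool taken as separate.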

Additional observations from a re-analysis of the deposited data

Results flagged for a closer look

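In 15 of 148 groups of 6 to 8 libraries, the highest or the lowest library lay apart from the others by Dixon's test, and chance gives about 1 in 20 groups. The C57Bl/6J hypothalamus library on standard diet from pool 11_15 did so most often, with *Rpl3* at 784.4 CPM, *B2m* at 8536, *Cd3e* at 1593 and *Cd4* at 711.7, 15% of its counts in the 50 most abundant genes and a mean log2 length of 11.18. The Balb/c rest brain library on standard diet from pool 42_46 had *Meg3* at 559.9 CPM. In C57Bl/6J rest brain on standard diet, pool 01_05 had *Ltb* at 1131 CPM and *Cd8b1* at 382.3. In C57Bl/6J hypothalamus, *Gzmb* was at 1367 CPM in pool 72_76 on HFHS diet, *Meg3* at 1.499 in pool 67_71 on standard diet, and the total was 13.2, in units of 1000000 counts, in pool 77_80 on HFHS diet. In Balb/c hypothalamus, *Mcm5* was at 133.2 CPM in pool 11_14 and *Rasal3* at 440.2 in pool 16_20, both on HFHS diet, and *Foxp3* at 12.9 in pool 42_46 on standard diet.

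The tissue effect differed between Balb/c and C57Bl/6J, by the adjusted p of the interaction in edgeR, at 45 named genes. The interaction on the log2 scale was positive at *Jak3* 1.77, *Itgb7* 0.87, *Fip1l1* 1.14, *Cnp* 1.10, *Atp5b* 0.93, *Atp5a1* 0.73, *Lck* 1.11, *Zap70* 1.39, *Vav1* 1.52, *Lcp2* 0.79, *H2-D1* 0.85, *H2-K1* 0.51, *Tapbp* 1.26, *Junb* 1.24, *Jund* 1.53, *Fos* 1.45, *Pkm* 1.67, *Eno1* 0.77, *Pfkp* 1.27, *Bst2* 1.62, *Stat2* 1.37, *Cxcr3* 0.64, *Ctsw* 0.56, *Tgfb1* 1.44, *Selplg* 0.64, *Itgb2* 1.14, *Rasal3* 1.71, *Arhgdia* 1.59, *Coro1a* 1.43, *Gpi1* 1.58, *9930111J21Rik1* 3.64, *Vsir* 1.01. It was negative at *Chaserr* -1.04, *Actr2* -0.97, *Rps25* -1.18, *Rps27* -1.27, *Rpl22l1* -1.12, *Ndufc1* -1.18, *Ndufa4* -1.13, *Cox6c* -1.18, *Cd3d* -0.9993, *Cd3g* -0.67, *B2m* -1.01, *Maf* -1.05, *Il2* -1.50. Strain and sex cannot be told apart in these differences. The 6 Balb/c rest brain libraries, whose counts were spread over genes unlike those of the other 23, enter each of them. Of all genes tested, the interaction passed at 1274, and at 380 with the offset for GC content and length. The part of that spread in the differences was not tested.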

How the results depend on the processing

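The alternatives with the offset for GC content and length, with the share of the 50 most abundant genes as a covariate, and without the 6 Balb/c rest brain libraries were chosen after seeing the data. Over both strains, where 1251 genes differed, the count was 6984 with a filter of more than 10 counts in total (18536 genes tested). It was 2165 with limma-voom, 1903 with equal weights for the groups and 695 with the number of genes detected as a covariate. In the libraries with equal pool labels in both tissues it was 604, and it was 513 with the offset. The count was 92 on standard diet alone, 11 on HFHS diet alone and 60 with the share of the 50 genes as a covariate. Without the Balb/c rest brain libraries, a fit that estimates the C57Bl/6J effect alone, it was 1. Leaving out 1 library gave 796 (Balb/c rest brain, HFHS diet, pool 16_20) to 1601. In Balb/c, where 2550 differed, the count was 6889 with the total-count filter (1327 higher, 5562 lower) and 1175 with the offset, and 2154 to 2626 without 1 library. In C57Bl/6J, where edgeR called 1 gene (511 at an unadjusted p under 0.05), the count was 42 with DESeq2, 2 with limma-voom, 2 without summing names, 2 with the offset, and 1 to 4 without 1 library. The interaction, at 1274 genes, gave 380 with the offset and 1029 to 1546 without 1 library. Agreement of sign between strains, 58.7%, was 54.6% with limma-voom.

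Pools with equal labels in both tissues were used as a replicate block as an alternative. The C57Bl/6J hypothalamus label 67_66 may be a slip for 62_66, a rest brain label, and was kept as given and not matched with it. With this replicate block by pool, in the libraries with equal labels, the count was 9 over both strains and 1784 in Balb/c (812 higher, 972 lower). It was 0 in C57Bl/6J by edgeR, where 342 genes had an unadjusted p under 0.05. Deviations from the group means of libraries with equal pool labels correlated at -0.0493 to 0.0393. The labels do not say whether the mice were the same, and the deviations alone do not decide it. With limma and a correlation between equal labels the count was 1376 over both strains (410 higher, 966 lower, median log2 fold change of all genes -0.18), and with limma on log2(TPM + 1) it was 1680. Leaving out 1 library, the difference in total counts was -3.13 to -1.61, in units of 1000000 counts, with an exact p of 0.00689 without Balb/c rest brain pool 42_46 on standard diet. In genes with more than 10 counts it was -1207 to -1075, in the share of the 50 genes -2.885 to -2.438, in ribosomal protein share -1.649 to -1.351 and in log2 length 0.10 to 0.13.

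Signs turned for *Gm6793* (-0.25 with genes detected as covariate), for *Cnp* (-0.0535), *Cd3d* (0.00377) and *Fos* (-0.0349) without the Balb/c rest brain libraries, as in C57Bl/6J alone, for *Rpl22l1* (0.0339), *Ndufc1* (0.15), *Ndufa4* (0.18), *Cox6c* (0.10), *Cd3g* (0.0233) and *B2m* (0.20) with the offset, and for *B2m* (0.000977) with the share of the 50 genes. Of 87 named genes called over both strains, 75 kept the call in each fit without 1 library and 12 lost it in some. The call held for 86 with DESeq2, 83 with limma-voom, 53 with the offset, 40 with genes detected and 26 with the share of the 50 genes as covariate, 24 on standard diet alone, 5 on HFHS diet alone, 5 with the block by pool and 1 without the Balb/c rest brain libraries.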
